A study of Macaca mulatta with 22 samples.

Results

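The genes described here are 8 immediate early genes (FOS, FOSL2, JUNB, EGR2, NR4A1, NR4A2, ATF3 and BTG2), measured in dominant follicles of the rhesus macaque (Macaca mulatta), taken singly before and after ovulation. They were taken by name as every probe set whose only symbol in the platform annotation is one of these names. The names were chosen with earlier results of these data known. Counts of called genes set beside shares of all probe sets may therefore partly reflect that choice. That gave 17 probe sets for 8 of 8 genes, out of 52766 probe sets tested and 14132 genes that a probe set names alone. NR4A2 had 5 probe sets, ATF3 had 3, FOSL2, EGR2 and NR4A1 had 2 each, and FOS, JUNB and BTG2 had 1. Each gene is counted by its brightest probe set, by its mean over the 22 arrays, called set 1, and dimmer sets are numbered by brightness.

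All animals were female and on a controlled ovulation protocol, in which the GnRH antagonist Acyline and 30 IU each of recombinant human FSH and LH were given once serum estradiol had reached its set level. The 22 arrays, 1 follicle each, form 5 groups. There were 6 follicles at 0 h, which had the antagonist, FSH and LH but no hCG, and 4 each at 12 h and 24 h after 1000 IU of recombinant human chorionic gonadotropin (hCG, a stand-in for the LH surge that binds the same receptor). A further 4 follicles were taken unruptured at 36 h after the same hCG dose and 4 ruptured at 36 h. The follicle was cut from the ovary of an anesthetized animal and frozen in liquid nitrogen, so each RNA pool holds granulosa, theca, vascular and blood cells together. Ages are not stated, nor whether all follicles came from separate animals, so p-values speak only of the variation among the follicles collected. The values are log2 intensities of Affymetrix arrays, on which a difference of 1 is a 2-fold difference in signal, and levels of different probe sets cannot be set against each other.

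Immediate early genes are transcribed within minutes of a stimulus from factors already present in the cell, without new protein synthesis, and most of their mRNAs decay quickly. In granulosa cells the LH surge acts through cAMP, protein kinase A and the ERK kinases, which phosphorylate CREB and serum response factor partners at the promoters of such genes. FOS and JUN family proteins pair to form the transcription factor AP-1, ATF3 binds related sites, EGR2 is a zinc finger factor, NR4A1 and NR4A2 are orphan nuclear receptors that act without a known hormone, and BTG2 is an antiproliferative protein that promotes mRNA deadenylation. BTG2 is thus not a DNA-binding factor itself. FOSB, FOSL1, JUN, EGR1, EGR3 and NR4A3 had no probe set that names them alone, so they were not measured here.

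The arrays had median intensities from 26.1 to 26.7. Of the defining markers of a follicle, the inhibin subunit gene INHA had log2 levels of 8.55 to 12.07 over all arrays and the steroidogenic gene STAR 12.04 to 13.46. The theca gene CYP17A1 ranged from 6.83 in a ruptured follicle to 12.55 in a follicle at 0 h. RNA integrity was followed by the 3' minus 5' index of the actin, GAPDH and EF1A controls, which is larger in degraded RNA. Its group means lay between 0.280 (24 h) and 0.371 (12 h), with 0.301 ± 0.052 in ruptured and 0.354 ± 0.043 in unruptured follicles (SD, n = 4 each). Ruptured follicle 8 stood apart from the other 3 ruptured follicles in the genes described here, and the members' changes in ruptured follicles are given with and without it.

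**Figure D1:**
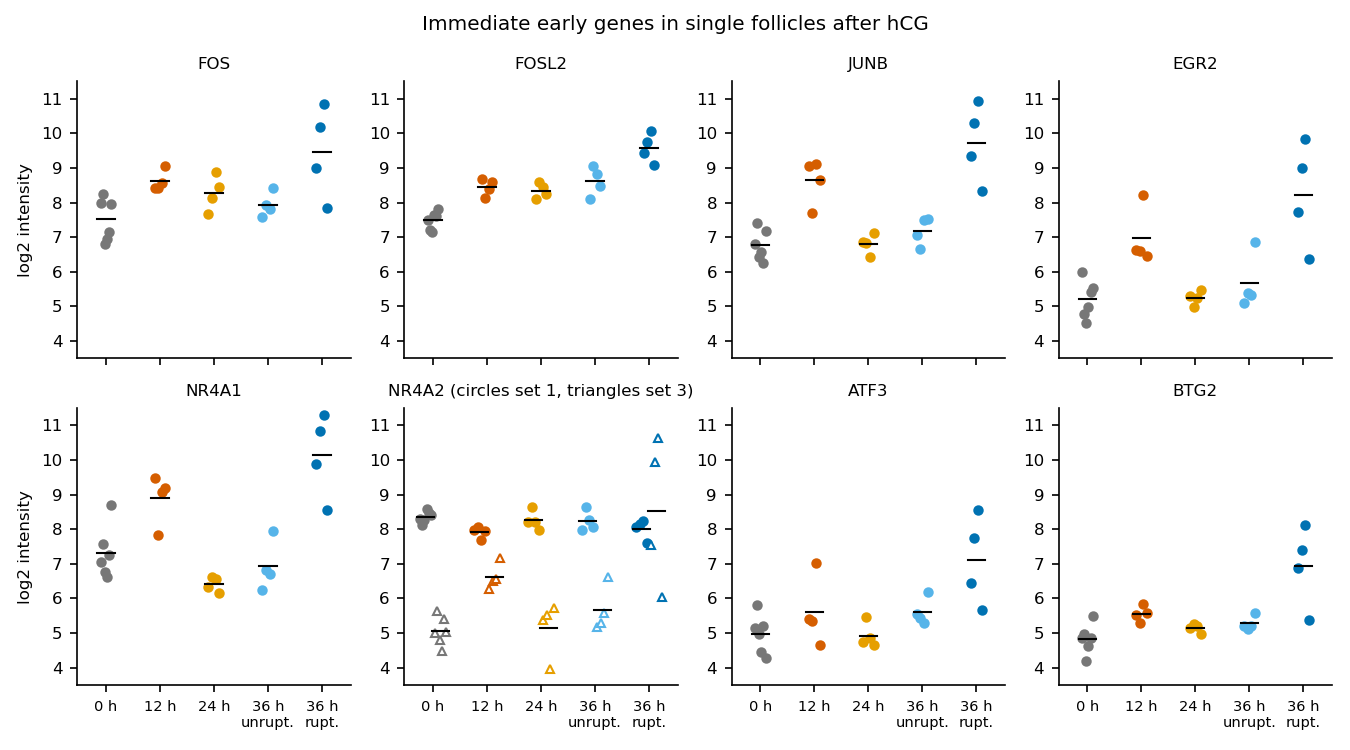
Log2 intensity (y axis) of the 8 genes in each of 22 follicles (points) by group (x axis, hours after hCG, with 36 h split into unruptured and ruptured), with group means as lines. Circles are the brightest probe set and the triangles in the NR4A2 panel its set 3. In 7 of the 8 genes the ruptured group holds the highest follicle of all, which is ruptured follicle 7.

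Across the 5 groups, 7 of the 8 genes differed in limma's moderated F test at an adjusted p under 0.05, and 13 of the 17 probe sets did, while 20.1% of all probe sets tested did. NR4A2, counted by its set 1, was the exception (adjusted p = 0.211). For each of the other 7 genes the ruptured follicles had the highest mean of the 5 groups. Shares of all probe sets, here and below, take in dim sets. The brightest sets of the 8 genes lay at the 60.0 to 90.2 percentiles of mean level. With dim sets left out 12837 probe sets passed the F test, against 10626 with them, though fewer were tested. The share among sets as bright as those of the 8 genes is thus larger than 20.1%. Neighbours in each gene's order of group means are compared below. Those pairs were picked from the same values, and their p-values do not account for that choice. Changes in signal of a whole follicle do not tell a change per cell from a change in the number of cells of a type.

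FOS is the founding member of the FOS family and must pair with a JUN protein to bind DNA. It was at 6.81 to 8.25 (median 7.56) in the 6 follicles at 0 h and at 8.43, 8.41, 8.58 and 9.06 in the 4 at 12 h. At 24 h it was at 7.67, 8.13, 8.89 and 8.44, in unruptured follicles at 7.58, 7.93, 7.81 and 8.41, and in ruptured follicles 5, 6, 7 and 8 at 9.01, 10.19, 10.86 and 7.85. All 12 h follicles lay above all 0 h follicles, and the ruptured group reached both above and into the unruptured range. In the order of means (ruptured, 12 h, 24 h, unruptured, 0 h) no neighbours passed the test. The differences between those neighbours were 0.86 ± 0.49 (adjusted p = 0.449), 0.34 ± 0.49 (adjusted p = 0.783), 0.35 ± 0.49 (adjusted p = 0.956) and 0.41 ± 0.45 (adjusted p = 0.723).

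FOSL2, also known as FRA2, is a FOS family member that lacks the strong activating end of FOS and is expressed for longer in many cells. Its set 1 was at 7.15 to 7.82 (median 7.56) at 0 h and at 8.69, 8.15, 8.41 and 8.60 at 12 h. It was at 8.09, 8.59, 8.44 and 8.24 at 24 h, at 8.10, 9.07, 8.82 and 8.48 in unruptured follicles, and at 9.44, 9.74, 10.06 and 9.10 in ruptured ones. Every follicle after hCG lay above every 0 h follicle, and every ruptured follicle above every unruptured one. FOSL2 was the member with 2 separate steps in its order of means. The ruptured mean was above the unruptured one by 0.97 ± 0.23 (adjusted p = 0.0101), and the lowest mean after hCG, that at 24 h, was above 0 h by 0.85 ± 0.21 (adjusted p = 0.0271). The steps from unruptured to 12 h and from 12 h to 24 h did not pass, at 0.16 ± 0.23 (adjusted p = 0.765) and 0.12 ± 0.23 (adjusted p = 0.838). The dimmer set 2 had the same groups at its ends, with a mean of 6.60 ± 0.62 (SD, n = 4) for ruptured follicles and of 2.57 ± 1.17 (n = 6) for 0 h, and means of 5.02 to 5.08 for the other 3 groups.

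JUNB is a JUN family protein that pairs with FOS proteins and activates fewer AP-1 sites than JUN does. It was at 6.27 to 7.41 (median 6.69) at 0 h and at 9.05, 7.71, 9.13 and 8.67 at 12 h. At 24 h it was at 6.86, 6.85, 6.43 and 7.12, in unruptured follicles at 7.05, 6.66, 7.50 and 7.54 and in ruptured follicles at 9.34, 10.29, 10.93 and 8.34. The 12 h follicles were all above those at 0 h and at 24 h, and the ruptured follicles all above the unruptured ones. In the order of means the step from ruptured to 12 h did not pass, at 1.09 ± 0.44 (adjusted p = 0.24). The 12 h mean was above the unruptured one by 1.45 ± 0.44 (adjusted p = 0.0402), a pair picked by that order. The further steps to 24 h and 0 h did not pass, at 0.38 ± 0.44 (adjusted p = 0.94) and 0.04 ± 0.40 (adjusted p = 0.981).

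EGR2 (Krox20) binds GC-rich promoter elements and is induced by serum and growth factors. Its set 1 was at 4.53 to 6.01 (median 5.20) at 0 h and at 6.62, 6.62, 8.22 and 6.47 at 12 h, where follicle 3 was far above the other 3. That follicle also had the highest RNA index of the 22, at 0.517 against 0.220 to 0.416 in the rest, and the highest macrophage marker sum, 5399, and the part of either was not tested. At 24 h it was at 5.29, 4.97, 5.26 and 5.48, in unruptured follicles at 5.09, 5.40, 5.32 and 6.87 and in ruptured follicles at 7.73, 9.01, 9.82 and 6.38. Unruptured follicle 4 was above ruptured follicle 8, so those 2 groups overlapped, while the 12 h group lay above both 0 h and 24 h. No neighbours in its order of means (ruptured, 12 h, unruptured, 24 h, 0 h) passed the test, with differences of 1.25 ± 0.58 (adjusted p = 0.328), 1.31 ± 0.58 (adjusted p = 0.188), 0.42 ± 0.58 (adjusted p = 0.956) and 0.04 ± 0.53 (adjusted p = 0.986). Set 2 lay near the lower end of the arrays' range, at 0.07 to 2.73 (median 1.14) at 0 h, and its ruptured follicles, at 3.33, 4.76, 6.08 and 2.45, were all above the unruptured ones, at 0.51, 1.99, 1.58 and 1.98.

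NR4A1 (NUR77) is an orphan nuclear receptor that LH and cAMP induce in the ovary of rodents and that binds promoters of steroidogenic genes. Its set 1 was at 6.61 to 8.71 (median 7.15) at 0 h and at 9.49, 7.84, 9.09 and 9.19 at 12 h. It was at 6.33, 6.62, 6.55 and 6.17 at 24 h, at 6.24, 6.81, 6.72 and 7.96 in unruptured follicles and at 9.89, 10.84, 11.31 and 8.55 in ruptured ones. At 0 h follicle 6 was the highest, and it alone lay within the 12 h range. The 24 h follicles lay below all 12 h follicles, and 3 of the 4 lay below every 0 h follicle, while the ruptured follicles lay above all unruptured ones. Its order of means was ruptured, 12 h, 0 h, unruptured and 24 h, with neighbouring differences of 1.24 ± 0.54 (adjusted p = 0.287), 1.58 ± 0.49 (adjusted p = 0.0506), 0.39 ± 0.49 (adjusted p = 0.77) and 0.52 ± 0.54 (adjusted p = 0.93). NR4A1 and ATF3 were the members with their lowest mean at 24 h, and for NR4A1 24 h against 0 h was at -0.91 ± 0.49 (adjusted p = 0.399). Set 2 followed set 1 closely, at a Pearson r of 0.99 over the arrays, with its highest mean, 10.26 ± 1.36, in ruptured follicles and its lowest, 5.99 ± 0.39, at 24 h (SD, n = 4 each).

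The 5 probe sets of NR4A2 (NURR1), a close relative of NR4A1, fell into 2 kinds. Sets 1 and 2 stayed within a range of 7.60 to 8.65 and 6.31 to 7.72 over all 22 follicles, and neither passed the F test. Sets 3, 4 and 5 ranged from 3.96 to 10.63, 4.02 to 11.04 and 4.56 to 9.80, and each passed it. Set 3 was at 4.48 to 5.63 (median 5.01) at 0 h and at 6.29, 6.50, 6.57 and 7.16 at 12 h. It was at 5.37, 5.52, 3.96 and 5.72 at 24 h, at 5.19, 5.30, 5.59 and 6.62 in unruptured follicles and at 7.54, 9.94, 10.63 and 6.05 in ruptured follicles 5 to 8. Ruptured follicles 5, 6 and 7 lay above every other follicle of the study in set 3, while follicle 8 lay inside the unruptured range. Sets 3, 4 and 5 correlated with each other at Pearson r of 0.975 to 0.984 over 22 arrays and with sets 1 and 2 at -0.28 to 0.13, as a description. Which transcripts each set detects was not tested, and counts by gene take set 1.

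ATF3, a stress-induced factor of the ATF and CREB family that mostly represses as a homodimer, also had probe sets that disagreed. Its set 1 was at 4.29 to 5.82 (median 5.06) at 0 h and at 5.41, 5.35, 7.03 and 4.66 at 12 h, where follicle 3 was again the highest. It was at 4.74, 5.46, 4.86 and 4.65 at 24 h, at 5.55, 5.44, 5.28 and 6.20 in unruptured follicles and at 6.46, 7.76, 8.56 and 5.67 in ruptured follicles, where follicle 8 lay within the ranges at 0 h, at 12 h and in unruptured follicles. Set 2 stayed between 4.35 and 5.64, set 3 was dim and scattered between 0.13 and 4.15, and neither passed the F test (adjusted p = 0.496 and 0.802). No neighbours in the order of set 1 means passed, the largest difference being ruptured over unruptured at 1.50 ± 0.54 (adjusted p = 0.0887).

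BTG2, a target of p53 and of growth factors in other cells, was at 4.18 to 5.51 (median 4.85) at 0 h and at 5.52, 5.30, 5.83 and 5.58 at 12 h. It was at 5.15, 5.27, 5.21 and 4.96 at 24 h, at 5.21, 5.12, 5.21 and 5.58 in unruptured follicles and at 6.87, 7.40, 8.13 and 5.37 in ruptured ones. Ruptured follicles 5, 6 and 7 lay above all other follicles of the study, and follicle 8 lay within the ranges at 0 h, at 12 h and in unruptured follicles. Neighbours in its order of means (ruptured, 12 h, unruptured, 24 h, 0 h) did not pass, the largest difference being ruptured over 12 h at 1.38 ± 0.39 (adjusted p = 0.0776).

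**Figure D2:**
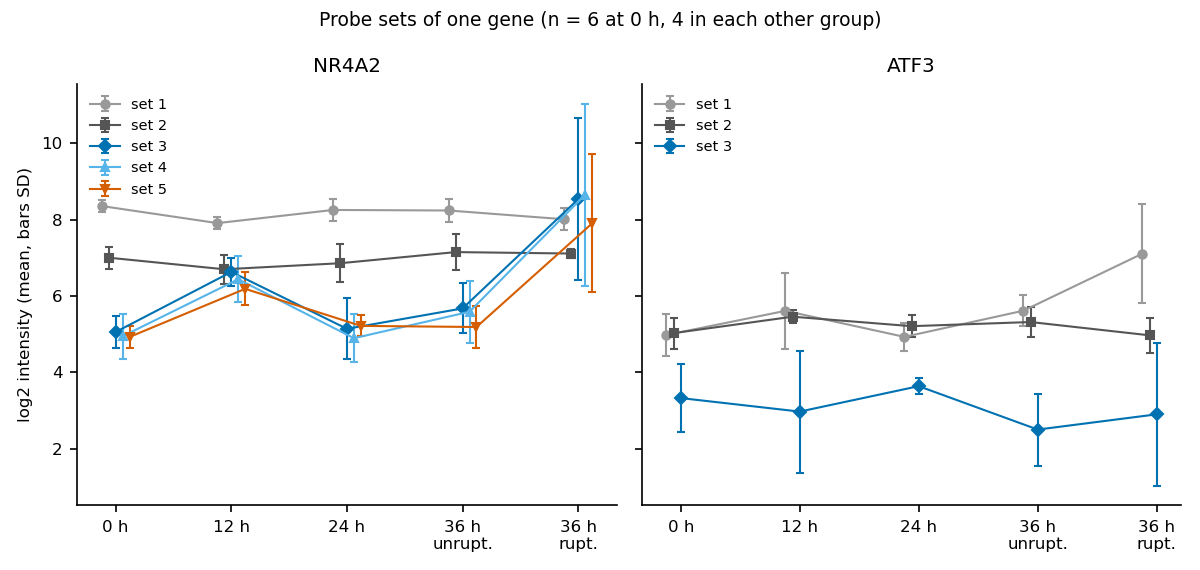
Group means of log2 intensity (y axis, bars are SD, n = 6 at 0 h and 4 in each other group) of the 5 NR4A2 and the 3 ATF3 probe sets by group (x axis). Sets 3, 4 and 5 of NR4A2 run together and reach means of 8.54, 8.66 and 7.90 in ruptured follicles, while sets 1 and 2 stay level. Of ATF3, set 1 alone is highest in ruptured follicles.

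At 12 h after hCG, compared with 0 h, FOSL2, JUNB and EGR2 were higher. These 3 of 8 genes rose and 0 fell at an adjusted p under 0.05 in limma's moderated test over all probe sets, of which 4.28% rose and 5.05% fell. JUNB rose 3.64-fold, a log2 difference of 1.86 ± 0.40 (SE, adjusted p = 0.00547), EGR2 by 1.77 ± 0.53 (adjusted p = 0.0428) and FOSL2 by 0.97 ± 0.21 (adjusted p = 0.00538). NR4A1 came to 1.58 ± 0.49 (adjusted p = 0.0506) and FOS to 1.10 ± 0.45 (adjusted p = 0.143), neither past the threshold, and the intervals of their changes were 0.55 to 2.61 and 0.17 to 2.03 (95%). The median over the 8 genes was 1.04, and over all probe sets 0.00.

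The other 3 were smaller, with BTG2 at 0.73 ± 0.35 (adjusted p = 0.24), ATF3 at 0.63 ± 0.49 (adjusted p = 0.51) and NR4A2 at -0.45 ± 0.16 (adjusted p = 0.0957) in set 1 and 1.57 ± 0.64 (adjusted p = 0.145) in set 3. At an unadjusted p under 0.05 there were 6 of the 8 genes, a level that many of all probe sets met. BTG2, just above it at an unadjusted p of 0.0539 in limma's test, ranked 11850 of the 52766 probe sets. The groups did not overlap for FOS, FOSL2, JUNB and EGR2, all higher at 12 h, and for NR4A2 set 1, lower at 12 h, that is 5 of 8 genes, against 9.83% of all probe sets. NR4A1 lay close to the threshold and passed under 5 other processing choices that keep all follicles, with adjusted p of 0.0192 to 0.0491. It also passed with a block for replicate number (adjusted p = 0.0258), in which 0 h follicles 5 and 6 have no partner at 12 h. Without 0 h follicle 6 it was at 1.86 ± 0.47 (adjusted p = 0.0193), and without 12 h follicle 2, the lowest of its group, at 1.93 ± 0.51 (adjusted p = 0.0298). EGR2 lost its call when any single 12 h follicle or any 0 h follicle but follicle 1 was left out, with the smallest change, 1.36 ± 0.55 (adjusted p = 0.153), without 12 h follicle 3.

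Other genes moved at 12 h as well. Of 33 further immediate early genes 24 were measured, of which 7 rose and 0 fell, with a median of 0.60. NFKBIZ, a nuclear regulator of NF-kB targets, rose by 1.63 ± 0.34 (adjusted p = 0.00505) and MAFF, a small MAF protein without an activating domain, by 1.54 ± 0.18 (adjusted p = 4.40e-05). Of 13 measured bZIP genes, whose products can pair with FOS, JUN or ATF proteins, 5 rose and 1 fell, among them BATF3 at 2.22 ± 0.64 (adjusted p = 0.0336), and MAFF counts in both lists. Of 18 measured regulators upstream of these promoters 0 rose and 1 fell, the CREB coactivator gene CRTC2 at -0.39 ± 0.12 (adjusted p = 0.0445). In this list 7 genes had an unadjusted p under 0.05, a level that many of all probe sets met at 12 h.

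Heat shock genes, listed here as a possible sign of handling, and some cell type markers also changed at 12 h. Of 12 heat shock genes 7 were measured, of which 2 rose and 0 fell, with BAG3, a co-chaperone, at 1.20 ± 0.17 (adjusted p = 0.000263) and HSPH1 at 1.15 ± 0.25 (adjusted p = 0.00557). Their summed intensity was 7383 to 10690 at 12 h, against 6111 to 7589 at 0 h. Of 8 measured macrophage and monocyte markers 4 rose and 0 fell, and their sum was 1868 to 5399 at 12 h, against 1241 to 2298 at 0 h. Granulosa markers had 0 of 8 higher and 2 lower, with sums of 3996 to 10460 at 12 h, against 8862 to 16930 at 0 h. Genes of luteinization had 2 of 3 higher, with sums of 9862 to 18460 at 12 h, against 6868 to 9310 at 0 h and no overlap, and neutrophil markers 1 of 6 higher. Endothelial markers summed to 1285 to 2220 at 12 h, against 957 to 2005 at 0 h, with 0 of 9 past the test and 1 with an unadjusted p under 0.05. In a fit that also held the RNA index EGR2 fell short of the threshold at 1.62 ± 0.56 (adjusted p = 0.0934), and the part of these cells and of handling in the result was not tested.

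**Figure D3:**
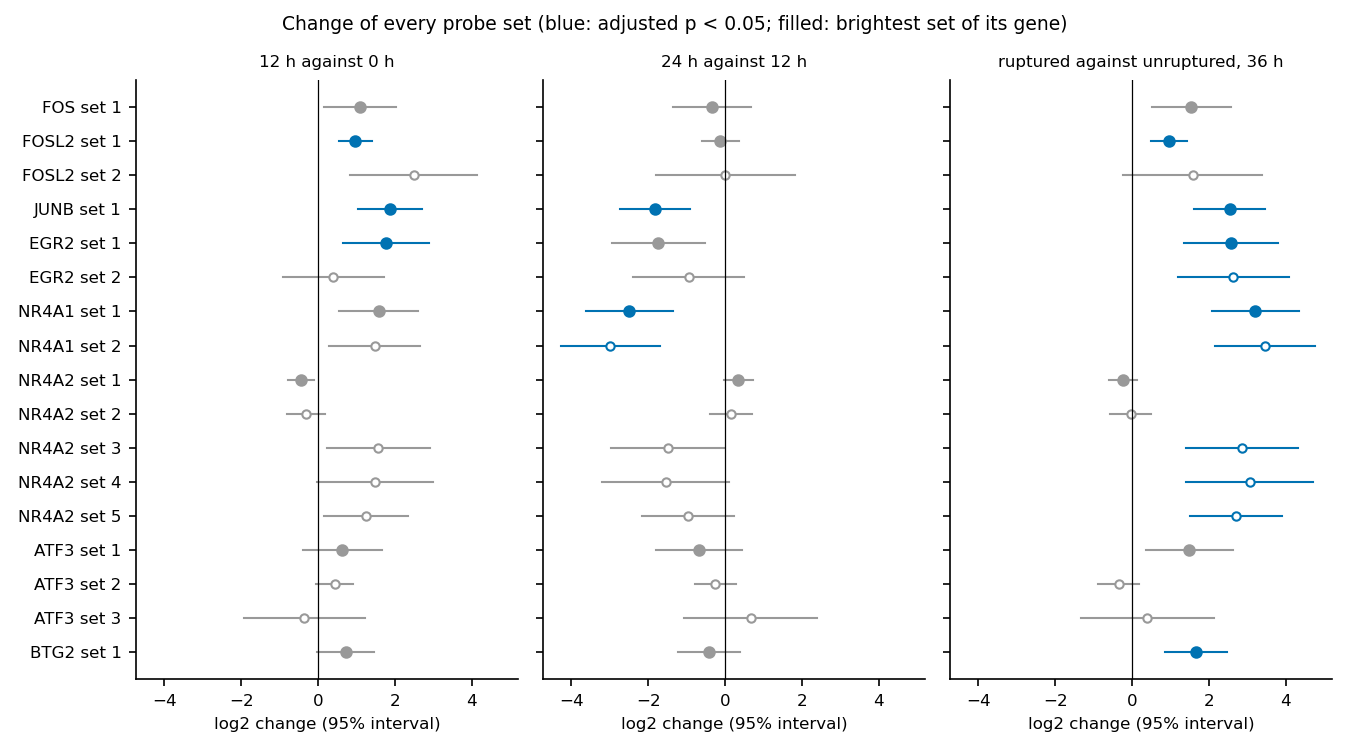
Log2 change (x axis, with 95% interval) of each of the 17 probe sets (rows) at 12 h against 0 h, at 24 h against 12 h, and in ruptured against unruptured follicles at 36 h. Blue marks an adjusted p under 0.05 and filled points the brightest set of a gene. Ruptured follicles show 10 blue sets, against 3 in each of the other comparisons.

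At 24 h JUNB and NR4A1 were lower than at 12 h. Of the 8 genes 0 rose and these 2 fell, while 3.67% of all probe sets rose and 3.20% fell. An unadjusted p under 0.05 was met by 3 of the 8 genes and by many of all probe sets. NR4A2 set 3, at an unadjusted p of 0.0468 in limma's test, ranked 10063 of the 52766 probe sets. NR4A1 fell, with log2 differences of -2.49 ± 0.54 (SE, adjusted p = 0.00857) in set 1 and -2.98 ± 0.62 (adjusted p = 0.00641) in set 2, and JUNB with -1.83 ± 0.44 (adjusted p = 0.015). EGR2 did not pass, at -1.73 ± 0.58 (adjusted p = 0.0859), though none of its 24 h follicles reached the 12 h range. The groups did not overlap for JUNB, EGR2, NR4A1 and BTG2, all lower at 24 h, or 4 of 8 genes, against 13.1% of all probe sets in either direction. The 12 h follicles are in both this comparison and that with 0 h, so the changes in them are not independent.

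FOSL2 came to -0.12 ± 0.23 (adjusted p = 0.838) at 24 h against 12 h, with a 95% interval of -0.60 to 0.35, which lies wholly above that of JUNB, -2.74 to -0.91, and the difference between the genes was not tested. FOS came to -0.34 ± 0.49 (adjusted p = 0.783), with an interval of -1.36 to 0.69. BTG2 was at -0.41 ± 0.39 (adjusted p = 0.634), ATF3 at -0.68 ± 0.54 (adjusted p = 0.547), and NR4A2 at 0.34 ± 0.18 (adjusted p = 0.3) in set 1 and -1.49 ± 0.70 (adjusted p = 0.245) in set 3. JUNB missed the threshold without 12 h follicle 1, at -1.69 ± 0.48 (adjusted p = 0.0525), and in a fit of these 2 groups alone, at -1.83 ± 0.34 (adjusted p = 0.0639).

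Heat shock genes were lower at 24 h in 5 of 7 measured cases and higher in 0, with HSPH1 at -1.82 ± 0.27 (adjusted p = 0.000597) and DNAJB1 at -1.47 ± 0.36 (adjusted p = 0.0181). Their summed intensity was 5498 to 5723 at 24 h, against 7383 to 10690 at 12 h, and the groups did not overlap. Of the 24 further immediate early genes 4 fell and 0 rose, with MAFF at -1.34 ± 0.20 (adjusted p = 0.000639) and IER2 at -1.02 ± 0.23 (adjusted p = 0.0116). Among the upstream regulators 2 rose and 1 fell. CREM, a cAMP-responsive factor gene that also gives the repressor ICER, fell, at -1.12 ± 0.33 (adjusted p = 0.0456), and the ERK1 gene MAPK3 rose by 0.61 ± 0.12 (adjusted p = 0.00611). Of the 13 bZIP genes 2 fell, MAFF and MAFG, the second at -0.46 ± 0.13 (adjusted p = 0.0342), and 0 rose. The macrophage sum was 2219 to 4761 at 24 h, against 1868 to 5399 at 12 h, with 0 of 8 markers past the test and 0 with an unadjusted p under 0.05. Genes of luteinization had 2 of 3 lower and granulosa markers 2 of 8 lower, with 0 higher in either list, and their part was not tested.

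Unruptured follicles at 36 h showed no called change from 24 h in any of the 8 genes. In limma's test 0 of the 17 probe sets passed, 0 had an unadjusted p under 0.05, and 0.00379% of all probe sets were called. NR4A1 was at 0.52 ± 0.54 (adjusted p = 0.93), JUNB at 0.38 ± 0.44 (adjusted p = 0.94), EGR2 at 0.42 ± 0.58 (adjusted p = 0.956) and FOS at -0.35 ± 0.49 (adjusted p = 0.956), with intervals of -0.61 to 1.65, -0.54 to 1.29, -0.80 to 1.64 and -1.37 to 0.67. These intervals hold changes as large as those of some genes at 12 h, so a smaller step was not detectable with 4 follicles a group. Unruptured follicle 4 had the highest level of the 4 in FOS, JUNB, EGR2, NR4A1, ATF3 and BTG2.

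At 36 h, ruptured follicles had higher levels than unruptured ones in 5 of the 8 genes, FOSL2, JUNB, EGR2, NR4A1 and BTG2, and lower in 0. Among all probe sets 4.83% were higher and 4.99% lower. NR4A1 rose 9.29-fold, a log2 difference of 3.21 ± 0.54 (SE, adjusted p = 0.000888), EGR2 by 2.57 ± 0.58 (adjusted p = 0.00839), JUNB by 2.54 ± 0.44 (adjusted p = 0.00106), BTG2 by 1.66 ± 0.39 (adjusted p = 0.00967) and FOSL2 by 0.97 ± 0.23 (adjusted p = 0.0101). The median over the 8 genes was 1.60, against -0.03 over all probe sets. An unadjusted p under 0.05 was met by 7 of the 8 genes and by many of all probe sets. ATF3, the weakest of these 7 at an unadjusted p of 0.0117 in limma's test, ranked 6972 of the 52766 probe sets. FOSL2 set 2, at an unadjusted p of 0.0830, ranked 14549. The number of all probe sets under 0.05 thus lay between these 2 ranks. FOS, at 1.54 ± 0.49 (adjusted p = 0.0521), and ATF3, at 1.50 ± 0.54 (adjusted p = 0.0887), missed the threshold. With the same follicles both passed with 16 added before log2 (adjusted p = 0.0270 for FOS and 0.0444 for ATF3) and with dim probe sets left out (0.0198 and 0.0375), and FOS passed with array weights or an intensity trend (0.0427 and 0.0245).

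NR4A2 depended on the probe set. Set 1 was at -0.23 ± 0.18 (adjusted p = 0.502) and set 2 at -0.04 ± 0.26 (adjusted p = 0.958), while set 3 rose by 2.86 ± 0.70 (adjusted p = 0.013), set 4 by 3.07 ± 0.79 (adjusted p = 0.0175) and set 5 by 2.72 ± 0.57 (adjusted p = 0.00493). Over all sets 10 of 17 rose and 0 fell, since set 2 of EGR2, at 2.64 ± 0.69 (adjusted p = 0.0191), and of NR4A1, at 3.46 ± 0.62 (adjusted p = 0.00149), passed too. Set 2 of FOSL2 did not, at 1.58 ± 0.86 (adjusted p = 0.301). The groups did not overlap for FOSL2, JUNB and NR4A1, 3 of 8 genes, against 15.2% of all probe sets. In a fit of these 2 groups alone NR4A1 was the 1 gene called. JUNB then had an adjusted p of 0.0593, FOSL2 of 0.125, EGR2 of 0.127 and BTG2 of 0.152, with the same changes.

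The 4 ruptured follicles stood in the same order in each of the 8 genes by set 1, and in 6 of them they differed widely. Follicle 7 was highest, then 6, then 5, and follicle 8 lowest in 8 of the 8 genes and in 13 of the 17 probe sets. This order held in 5.33% of all probe sets tested and in 10.9% of the 2549 that were higher in ruptured follicles. Follicle 8 was the lowest of the 4 in 25.7% of all probe sets, which among 4 follicles is close to an even share. The genes are not independent of one another, and the order rests on 4 follicles. Within the group the range was 2.76 in NR4A1, 2.59 in JUNB, 3.45 in EGR2, 3.02 in FOS, 2.88 in ATF3, 2.76 in BTG2, 0.96 in FOSL2 and 0.64 in NR4A2 set 1 on the log2 scale. The SD of FOSL2, 0.41, and of NR4A2 set 1, 0.28, were below the median of all probe sets, 0.44. Erythroid markers, of which 4 were measured, ran in the same order, with sums of 1199, 2177, 4231 and 1087 in ruptured follicles 5 to 8, against 2902, 475, 2188 and 1913 in unruptured follicles 1 to 4. The sums of the heat shock genes and of the further immediate early genes, given below, ran in that order too. The part of blood content or of handling in the order was not tested.

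The SD of these 8 genes had a median of 1.19 in ruptured follicles, against 0.41 in unruptured ones and 0.25 to 0.49 in the earlier groups. Over all probe sets the median SD was between 0.40 and 0.44 in every group. NR4A2 sets 3 and 4 had the widest spread of the 17 sets, at the 98.5 and 99.5 percentiles of the SD of all probe sets in ruptured follicles. Follicle 8 is singled out here as the lowest of its group in these same genes, so their changes must rise without it. In a fit without follicle 8, 7 of the 8 genes were called higher in ruptured than in unruptured follicles. Over all probe sets 4599 were called without it in either direction, against 5181 with it. FOS was then at 2.09 ± 0.42 (adjusted p = 0.00429), ATF3 at 1.98 ± 0.51 (adjusted p = 0.0215), NR4A1 at 3.75 ± 0.50 (adjusted p = 0.00018), JUNB at 3.00 ± 0.39 (adjusted p = 0.000151), EGR2 at 3.18 ± 0.52 (adjusted p = 0.000892), BTG2 at 2.18 ± 0.27 (adjusted p = 0.000119) and FOSL2 at 1.13 ± 0.23 (adjusted p = 0.00459). NR4A2 set 3 was at 3.69 ± 0.57 (adjusted p = 0.000664) without it, and set 1 at -0.09 ± 0.18 (adjusted p = 0.841).

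**Figure D4:**
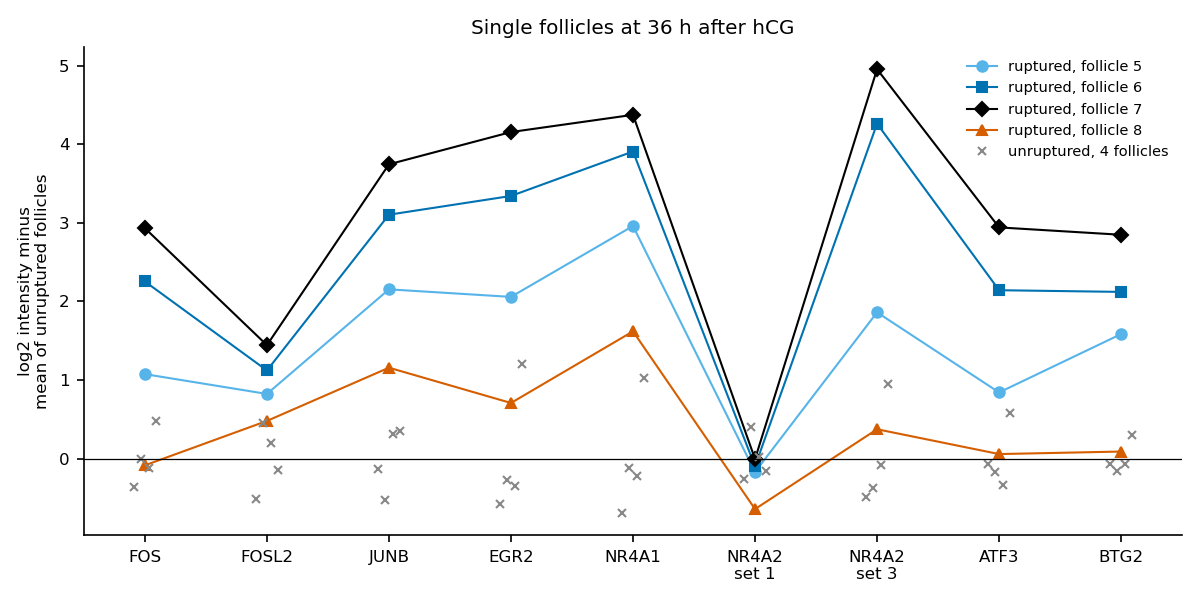
Log2 intensity minus the mean of the 4 unruptured follicles (y axis) for each gene (x axis) in the 4 ruptured follicles (lines) and the 4 unruptured follicles (crosses) at 36 h. The 4 lines do not cross, with follicle 7 on top and follicle 8 at the bottom. Follicle 8 lies among the unruptured follicles in FOS, EGR2, ATF3, BTG2 and NR4A2 set 3 above them in FOSL2, JUNB and NR4A1, and below them in NR4A2 set 1.

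Of the 24 further immediate early genes 10 rose in ruptured over unruptured follicles and 0 fell, with a median of 0.67, and without follicle 8 there were 11 and 0. SIK1, a kinase gene induced by cAMP, rose by 2.17 ± 0.54 (adjusted p = 0.0142) and MAFF by 1.75 ± 0.20 (adjusted p = 4.02e-05). Their list summed to 15690, 22010, 22780 and 12460 in ruptured follicles 5 to 8, against 12410, 12650, 12490 and 13670 in unruptured follicles 1 to 4. Follicle 8 was thus at the level of the unruptured follicles here too. Among 18 upstream regulators 2 rose and 2 fell, with CREM at 1.93 ± 0.33 (adjusted p = 0.00096) and the CREB coactivator gene CRTC1 at 0.67 ± 0.21 (adjusted p = 0.0488), and without follicle 8 there were 1 and 2. Among 13 bZIP genes 2 rose and 2 fell, with JDP2, a repressor of AP-1, at -0.92 ± 0.26 (adjusted p = 0.0283), and without follicle 8 there were 1 and 0.

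Heat shock genes moved with rupture as well. Of 7 measured, 4 rose and 0 fell, with or without follicle 8, among them HSPH1 at 1.66 ± 0.27 (adjusted p = 0.000671) and BAG3 at 1.21 ± 0.19 (adjusted p = 0.000499). Their summed intensity was 7582, 8406, 10250 and 5942 in ruptured follicles 5 to 8, against 5411, 5598, 5344 and 5603 in unruptured ones, so that the groups did not overlap and follicle 7 was highest and follicle 8 lowest. Macrophage and monocyte markers summed to 2032, 2506, 2026 and 3488 in ruptured follicles 5 to 8, against 2884, 2307, 3197 and 2953 in unruptured ones, and follicle 8 was the highest. Of these 8 markers 0 passed limma's test and 0 had an unadjusted p under 0.05. Endothelial markers summed to 2031 to 3058 in ruptured and 2086 to 2645 in unruptured follicles, with 0 of 9 higher and 1 lower, and 0 lower without follicle 8. Genes of luteinization had 1 of 3 higher and 0 lower, with or without follicle 8. Their sums were 14360 to 16220 in ruptured and 8180 to 10350 in unruptured follicles, with no overlap. Granulosa markers had 1 of 8 higher and 1 lower, with sums of 5909 to 8979 in ruptured and 3678 to 6174 in unruptured follicles. Theca markers had 0 and 1 of 6, and oocyte markers 1 and 0 of 5. Neutrophil and lymphocyte markers had 0 of 6 and 0 of 4 in either direction, with 0 of these 10 at an unadjusted p under 0.05. The part of handling, of stress and of other cells in the result was not tested.

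**Figure D5:**
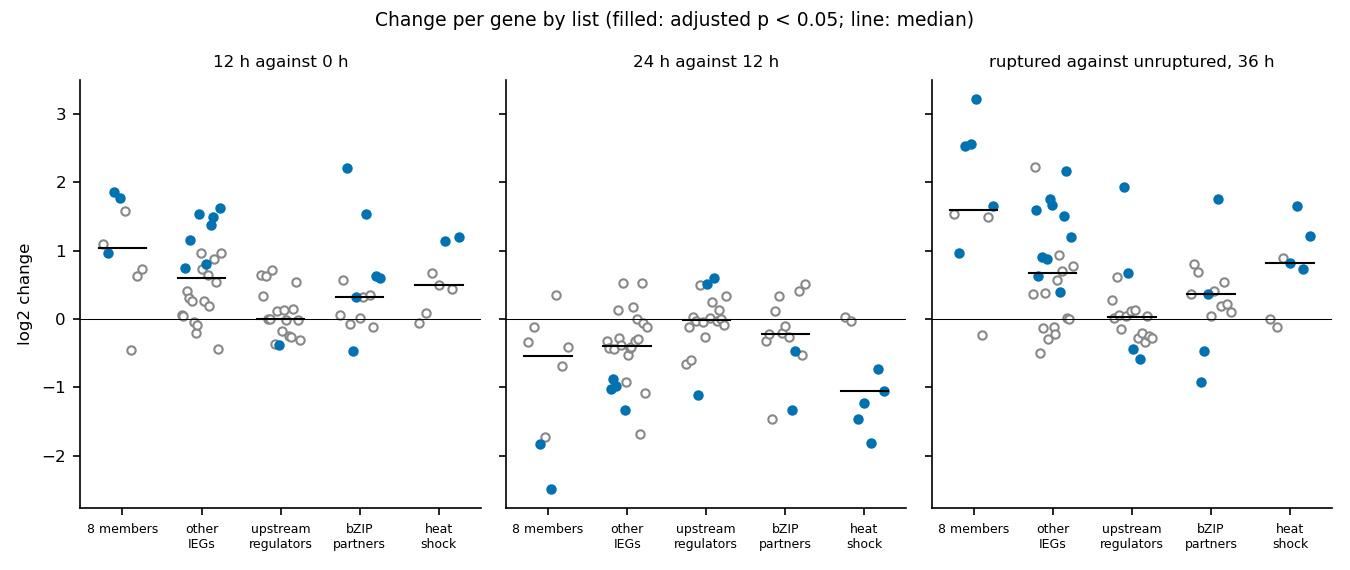
Log2 change (y axis) of each gene in the 8 members and in 4 further lists (x axis, IEG stands for immediate early gene) at 12 h against 0 h, at 24 h against 12 h, and in ruptured against unruptured follicles. Filled points passed an adjusted p under 0.05 and lines are medians. Heat shock genes have medians of 0.50, -1.05 and 0.82 in the 3 comparisons and upstream regulators medians within 0.03 of 0.

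Against 0 h, FOSL2 was the 1 member that was called at 24 h and in unruptured follicles, and 7 of 8 were called in ruptured ones. All were higher, as were 1.66%, 2.08% and 7.01% of all probe sets in these 3 comparisons, which share the 0 h follicles. FOSL2 exceeded its 0 h level by 0.85 ± 0.21 (adjusted p = 0.0271) in 24 h follicles, by 1.13 ± 0.21 (adjusted p = 0.00356) in unruptured follicles and by 2.09 ± 0.21 (adjusted p = 2.28e-06) in ruptured ones. At 24 h it missed the threshold without 24 h follicle 2, 3 or 4 or without 0 h follicle 2 or 3, with adjusted p of 0.0532 to 0.0891. JUNB stood at 0.04 ± 0.40 (adjusted p = 0.981), 0.41 ± 0.40 (adjusted p = 0.68) and 2.95 ± 0.40 (adjusted p = 5.20e-05) in the same order. NR4A1 stood at -0.91 ± 0.49 (adjusted p = 0.399), -0.39 ± 0.49 (adjusted p = 0.77) and 2.82 ± 0.49 (adjusted p = 0.000562). Also higher in ruptured follicles than at 0 h were EGR2 by 3.02 ± 0.53 (adjusted p = 0.00061), FOS by 1.96 ± 0.45 (adjusted p = 0.00479), ATF3 by 2.13 ± 0.49 (adjusted p = 0.00505) and BTG2 by 2.11 ± 0.35 (adjusted p = 0.000386). Set 3 of NR4A2 was higher by 3.48 ± 0.64 (adjusted p = 0.000871), and set 1 was at -0.35 ± 0.16 (adjusted p = 0.174). Without ruptured follicle 8 the same 7 genes were called, with FOS at 2.50 ± 0.39 (adjusted p = 0.000315), FOSL2 at 2.26 ± 0.21 (adjusted p = 2.86e-06), JUNB at 3.41 ± 0.36 (adjusted p = 8.32e-06), EGR2 at 3.64 ± 0.48 (adjusted p = 6.87e-05), NR4A1 at 3.35 ± 0.46 (adjusted p = 0.0001), ATF3 at 2.61 ± 0.47 (adjusted p = 0.00112) and BTG2 at 2.63 ± 0.25 (adjusted p = 3.58e-06). NR4A2 set 3 was then at 4.31 ± 0.53 (adjusted p = 3.87e-05). Over all probe sets 7333 were called against 0 h without follicle 8 in either direction, and 8332 with it. Its low place in these genes makes their changes rise when it is left out.

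Of the 24 further immediate early genes, against 0 h, 2 were higher at 24 h, 4 before rupture at 36 h and 13 after it, and 0 were lower in each. NFIL3, a bZIP repressor gene, was higher by 1.20 ± 0.23 (adjusted p = 0.00481) at 24 h, by 1.05 ± 0.23 (adjusted p = 0.0105) in unruptured follicles and by 2.56 ± 0.23 (adjusted p = 6.18e-07) after rupture. GADD45B, of stress signalling, was higher by 2.13 ± 0.39 (adjusted p = 0.00324) in unruptured and 2.83 ± 0.39 (adjusted p = 5.70e-05) in ruptured follicles. The clock gene PER1 was higher by 1.07 ± 0.28 (adjusted p = 0.0375) at 24 h, 1.16 ± 0.28 (adjusted p = 0.0193) in unruptured and 1.17 ± 0.28 (adjusted p = 0.00594) in ruptured follicles. Among the bZIP genes BACH1, a heme-sensing repressor, was higher by 1.11 ± 0.16 (adjusted p = 0.000672), 1.05 ± 0.16 (adjusted p = 0.000981) and 1.16 ± 0.16 (adjusted p = 7.76e-05) in the 3 groups. Heat shock genes had 0 higher and 0 lower of 7 at 24 h, 0 and 2 in unruptured, and 2 and 0 in ruptured follicles. Cell type markers moved in these comparisons too, and their part was not tested. Granulosa markers were lower in 4 of 8 cases at 24 h, 3 before rupture and 3 after it, and higher in 0. Macrophage markers were higher in 2, 1 and 0 of 8 in the same order, neutrophil markers in 1, 1 and 3 of 6, and smooth muscle markers in 0, 0 and 2 of 3. Without ruptured follicle 8, counts against 0 h were 15 higher further immediate early genes, 2 higher heat shock genes, 3 lower granulosa markers, 3 higher neutrophil markers and 2 higher smooth muscle markers.

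Ruptured follicles were also compared with those at 12 h. No time between 0 h and 12 h was sampled, so levels in that span are not known. FOSL2 alone was called, higher by 1.12 ± 0.23 (adjusted p = 0.0153), while 0.942% of all probe sets were higher and 0.66% lower. The other changes were 0.86 ± 0.49 (adjusted p = 0.449) for FOS, 1.09 ± 0.44 (adjusted p = 0.24) for JUNB, 1.25 ± 0.58 (adjusted p = 0.328) for EGR2, 1.24 ± 0.54 (adjusted p = 0.287) for NR4A1, 1.50 ± 0.54 (adjusted p = 0.177) for ATF3 and 1.38 ± 0.39 (adjusted p = 0.0776) for BTG2. An unadjusted p under 0.05 was met by 6 of the 8 genes and by many of all probe sets. EGR2, the weakest of these 6 at an unadjusted p of 0.0450 in limma's test, ranked 7235 of the 52766 probe sets. Without ruptured follicle 8, the lowest of its group in these genes, FOSL2, JUNB and BTG2 were called, with BTG2 at 1.91 ± 0.27 (adjusted p = 0.00252) and JUNB at 1.55 ± 0.39 (adjusted p = 0.0473). Over all probe sets 1022 were then called in either direction, against 845 with it. Without ruptured follicle 7, or without 12 h follicle 2, no member was called and FOSL2 was at 0.96 ± 0.23 (adjusted p = 0.0546) and 1.02 ± 0.24 (adjusted p = 0.0518).

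FOSL2, JUNB and EGR2 were the members called higher both at 12 h against 0 h and in ruptured against unruptured follicles, which are comparisons of separate follicles. They were all 3 of those called at 12 h and 3 of the 5 called at rupture. Of all probe sets 1.93% met both.

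Apart from NR4A2 by set 1, the genes varied together from follicle to follicle. Over the 22 arrays the levels of the 28 pairs of members correlated at a median Pearson r of 0.76, and at 0.65 to 0.93 in the 21 pairs without NR4A2. The 7 pairs with NR4A2 set 1 had r of -0.48 to -0.20 for levels, and 0.06 to 0.73 for distances from group means. Once each follicle's distance from its group mean was taken, the 21 pairs had a median r of 0.70 and all were above 0. Without the 4 ruptured follicles the median of these was 0.35 over 18 arrays, from -0.26 to 0.80, with 20 of 21 above 0. These values are descriptions, since the genes of an array share its RNA and its normalization. The mean over the 8 genes was 6.14 to 6.93 per follicle at 0 h, 7.18 to 7.99 at 12 h, 6.54 to 6.82 at 24 h, then in unruptured follicles 6.60 to 7.39 and in ruptured follicles 7.36 to 9.74.

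Among 9002 other named genes above the median level, 3 were taken for each member by Pearson r over the 22 arrays. CSRNP1, itself an immediate early factor, was among the 3 most like FOS (r = 0.87), EGR2 (0.96), ATF3 (0.89) and BTG2 (0.91). JUNB was most like TRIB1 (0.97), BCL3 (0.96) and SERTAD1 (0.96), and NR4A1 most like IER2 (0.96), CREM (0.96) and SIK1 (0.95). FOSL2 was most like EIF1 (0.93), KDM7A (0.93) and UGP2 (0.92). NR4A2 set 1 was most like SMYD3 (0.85), AURKA (0.81) and RPS6KA6 (0.80), while its set 3, looked at after its values were known, was most like CSRNP1 (0.93), CHP2 (0.92) and CREM (0.90). These r values take in the differences between groups and are given with no test.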

How the data were processed

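Total RNA of 22 single follicles was hybridised to Affymetrix rhesus macaque arrays. The deposited intensity values are linear and were made by the authors with RMA (no version stated), per the submitters' processing notes. They were taken to log2 with nothing added, 99 control probe sets were dropped, and the number of arrays limits the precision. One model of the 5 group means was fitted with limma 3.58.1 in R 4.3.3 over all 52766 probe sets, with Benjamini-Hochberg adjustment in each of 8 comparisons and the F test, and was tested on simulated data. Tests are two-sided, and a change was called at an adjusted p under 0.05, with no filter on dim probe sets. Some neighbours in an order of means, such as 12 h and unruptured follicles, are outside those 8 comparisons. Standard errors and 95% intervals come from the moderated fit. All member probe sets are given, and other genes are named as up to 2 called genes with the largest change per list and comparison. NFIL3 and PER1 are also given in a comparison with 0 h where other genes of their list changed more. The members and lists were chosen with earlier results of these data known. Alternatives changed the normalization, pseudocount, filter, weights, covariate, groups and follicles, and those for the gene lists and for NR4A2 sets 3 to 5 were chosen after seeing the data. Gene symbols come from the platform annotation.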

Additional observations from a re-analysis of the deposited data

Results flagged for a closer look

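Of 85 groups of 4 or 6 follicles examined per probe set, 5 held a follicle far from the others of its group by Dixon's criterion, where chance gives about 5% of groups. EGR2 set 1 was at 8.22 in 12 h follicle 3, against 6.47 to 6.62 in the other 3. NR4A1 set 2 was at 7.88 in 12 h follicle 2, against 9.22 to 9.47 in the others. NR4A2 set 2 was at 6.96 in ruptured follicle 8, against 7.15 to 7.18 in the others. NR4A2 set 4 was at 6.08 in 0 h follicle 2, against 4.38 to 4.96 in the others. ATF3 set 3, a dim probe set, was at 1.58 in 0 h follicle 3, against 3.44 to 4.10 in the others.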

How the results depend on the processing

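Over the alternatives that keep the brightest probe set, the 20 called changes of member genes kept their call in 308 of 338 cases, lost it in 30 and turned sign in 0, and 25 of 734 uncalled cases became called. Of 14 values from other probe sets of the same genes, 6 kept the call, 6 lost it and 2, both of ATF3, turned sign. With dim probe sets left out, 5 genes were called at 12 h against 0 h, NR4A1 higher and NR4A2 set 1 lower (-0.45) in addition. That filter gave 7 in ruptured against unruptured follicles and 2 in ruptured follicles against 12 h. Calls over all probe sets rose with it too, to 6717 from 4922 at 12 h against 0 h and to 7063 from 5181 in ruptured against unruptured follicles. Ruptured follicles against 12 h also gave 2 genes with 16 added before log2 and 2 with an intensity trend. With the second brightest probe set where there is one, 1 gene was called at 12 h against 0 h, and 0 each at 24 h against 0 h, in unruptured follicles against 0 h and in ruptured follicles against 12 h. Fits of 2 groups alone gave 1 gene at 24 h against 12 h, 1 in ruptured against unruptured follicles and 0 in ruptured follicles against 12 h. Same-numbered follicles of different groups had r of deviations of -0.18 to 0.17 over 20 pairs. These values cannot show whether such follicles share an animal or a day. With the replicate block, 5 genes were called at 12 h against 0 h, 0 at 24 h against 0 h, 3 in ruptured follicles against 0 h and 5 by the F test. Only ruptured follicles 5 and 6 share a number with 0 h follicles. The count of 3 in ruptured follicles against 0 h thus rests on these 2 pairs and leaves out the other ruptured follicles. No paired analysis was possible for ruptured against unruptured follicles or against 12 h because these groups share fewer than 2 numbers. Leaving out 1 follicle gave 2 to 3 genes at 12 h against 0 h, 1 to 2 at 24 h against 12 h, 5 to 7 in ruptured against unruptured follicles, 0 to 1 at 24 h against 0 h, 7 to 7 in ruptured follicles against 0 h, 0 to 3 against 12 h and 5 to 7 by the F test. By probe set, NR4A2 turned sign between set 1 and sets 3, 4 and 5, which gave 2.86, 3.07 and 2.72 in ruptured against unruptured follicles and 3.48, 3.71 and 2.98 against 0 h. ATF3 sets 2 and 3 gave -0.058 and -0.43 in ruptured follicles against 0 h. The cause was not tested.

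Over all probe sets, calls at 12 h against 0 h numbered 4922, and 2418 with the replicate block or 2740 with 2 groups. At 24 h against 12 h they numbered 3628, against 2021 and 189, and in ruptured against unruptured follicles 5181, against 1318 with 2 groups. At 24 h and in unruptured follicles against 0 h they numbered 1771 and 2492, against 3070 and 3945 without dim sets, 652 and 827 with the block and 1082 and 1365 with 2 groups. In ruptured follicles against 0 h they numbered 8332, and 1036 with the block, which there rests on follicles of 2 shared numbers alone. Against 12 h they numbered 845, and 1457 with 16 added, 2060 without dim sets, 1693 with a trend, 557 with the index and 9 with 2 groups. The F test called 10626, and 4285 with the block. Leaving out 1 follicle gave as few as 2199 at 24 h against 12 h, 959 at 24 h and 1423 in unruptured follicles against 0 h, and 474 in ruptured follicles against 12 h. Unruptured follicles against 24 h gave 2, and 0 to 5 over the alternatives.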
